A study of Mus musculus with 10 samples.

Results

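The genes described here are 32 genes of the contractile machinery of smooth muscle, chosen by name from the 45706 genes counted in whole mouse uterus, and all 32 were found by Ensembl identifier and passed the filter on low counts. Whole-uterus RNA was sequenced at gestation day (GD) 3.5, counted from the vaginal plug, from 5 Arid1a f/f mice as controls and from 5 mice of the genotype Ltf iCre/+ Arid1a f/f, called Cre-positive here, all mature adult females. Both genotypes carry 2 floxed alleles of Arid1a, a subunit of the SWI/SNF chromatin remodeling complex. In the Cre-positive mice 1 lactoferrin (Ltf) allele also carries the Cre recombinase iCre. Arid1a is thus deleted in cells that have used the Ltf promoter, chiefly the endometrial epithelium. By the paper's account, this iCre is reportedly also expressed in myeloid cells such as neutrophils. The paper lists possible deletion in those cells among its limits. The muscle itself is therefore not the tissue in which the deletion is directed. The mice were of mixed C57BL/6 and 129 substrain background. The genes are grouped by role as thin filament (10 genes), myosin and its control (5), cytoskeletal linkers (5), transcription factors (2), membrane channels and receptor (4) and the calcium store (6).

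The outer wall of the uterus, the myometrium, is smooth muscle. Calcium that enters through membrane channels or leaves the sarcoplasmic reticulum binds calmodulin, which activates myosin light chain kinase, and the phosphorylated myosin then pulls on actin filaments that are anchored to the cell surface and to the intermediate filament network. Myosin phosphatase reverses the reaction. Transcription of many of these genes is driven by serum response factor (SRF) with its coactivator myocardin, which act through a DNA element called the CArG box. Vessel walls in the tissue hold smooth muscle of the same kind, so that the genes report on both. In whole tissue, fewer muscle cells and less RNA of these genes per cell cannot be told apart.

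The 10 libraries held between 59296537 and 72702411 counts, and values are given as CPM, the count of a gene after all libraries are brought to the same TMM size. Arid1a had 213 ± 22.9 CPM in controls and 185 ± 15.9 CPM in Cre-positive uteri (SD, n = 5 each), and its log2 fold change was -0.20 (standard error, SE, 0.09, edgeR adjusted p = 0.201). Ltf had 4.75 ± 3.92 and 714 ± 1194 CPM (SD, n = 5 each). The labelled tissue held its muscle markers in every library: the lowest values over the 10 uteri were 769 CPM for Myh11, 343 CPM for Des, 194 CPM for Cnn1, 148 CPM for Actg2 and 15.8 CPM for Myocd. Replicate numbers are those of the labels, and p-values measure the spread between these uteri.

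The contractile genes were on balance less abundant in Cre-positive uteri, but 30 of 32 did not pass the test. Synm and Synpo2, which encode proteins that tie filaments to one another and to the cell surface, were lower past the threshold, and none was higher (edgeR's quasi-likelihood test, adjusted p under 0.05 over the 25146 genes tested). The 2 calls are 6.25% of the genes, against 9.7% called in either direction 4.51% called lower and 5.19% called higher among all tested genes, a share near the background. With no adjustment, 7 of 32 had a p under 0.05, against 26.2% of all tested genes. DESeq2 called 3 lower, adding Myh11, and 0 higher, against 16.2% called in either direction and 7.77% called lower among all genes. Only in Synm and Synpo2 did the genotypes not overlap, while over all tested genes the values did not overlap in 10.7%, with 5.16% lower and 5.53% higher. The fitted log2 fold change was below 0 for 29 of the 32 genes and above 0 for Srf, Oxtr and Mrvi1, with a median of -0.38 and a range from -1.11 (Ryr2) to 0.76 (Oxtr). Among all tested genes 11894 of 25146 were below 0 and the median was 0.03. The count of calls depended on single uteri, since it was 0 without control replicate 2, control replicate 3 or Cre-positive replicate 1.

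**Figure D1:**
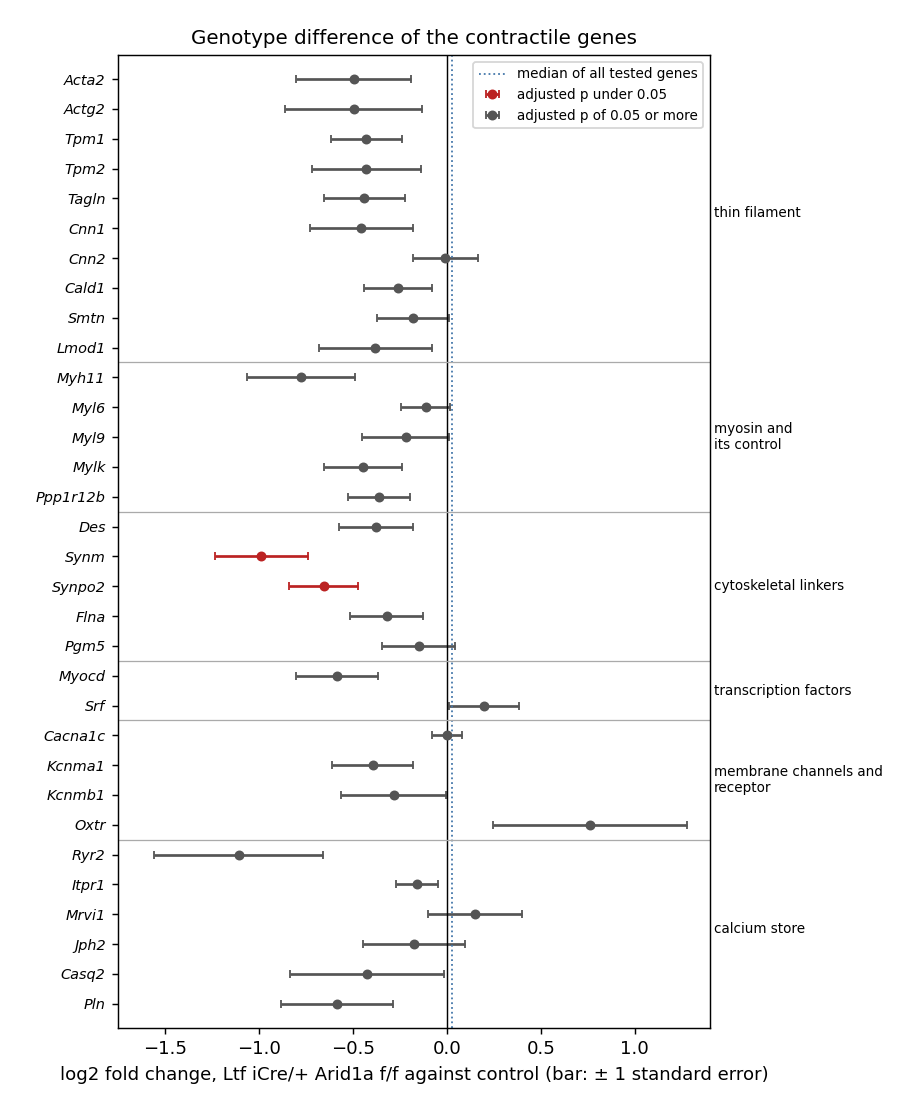
Log2 fold change of each of the 32 genes (points) with 1 SE (bars), grouped by role, with the 2 genes of adjusted p under 0.05 in red and the median of all tested genes, 0.03, as a dotted line. Most points lie left of 0, and the bars of Synm (-0.99) and Synpo2 (-0.66) are the ones farthest from 0 for their length.

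Taken as a share of the RNA, the 32 genes held 1.79%, 2.66%, 2.51%, 2.11% and 1.74% of all gene counts in control replicates 1 to 5. In Cre-positive replicates 1 to 5 they held 1.88%, 2.25%, 1.41%, 1.44% and 1.15%. Replicates 3, 4 and 5 lay below every control, while replicates 1 and 2 lay within the control range. The means were 2.16% ± 0.416 and 1.62% ± 0.433 (SD, n = 5 each), a difference of -0.54 percentage points that was of the size of the spread between uteri of 1 genotype and leaves 75.1% of the control share. Flna took 14.9% of the counts of the 32 genes, Acta2 12.4%, Mylk 10.3%, Myh11 9.74% and Tagln 6.36%. Without these 5 the remaining genes stood at 79.6% of the control share, and with the 100 most counted other genes left out of the total the full set stood at 75.4%, so the difference was present without the most abundant contractile genes and without the most abundant other genes. No test was made of a sum over the genes, because they were chosen with results known.

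**Figure D2:**
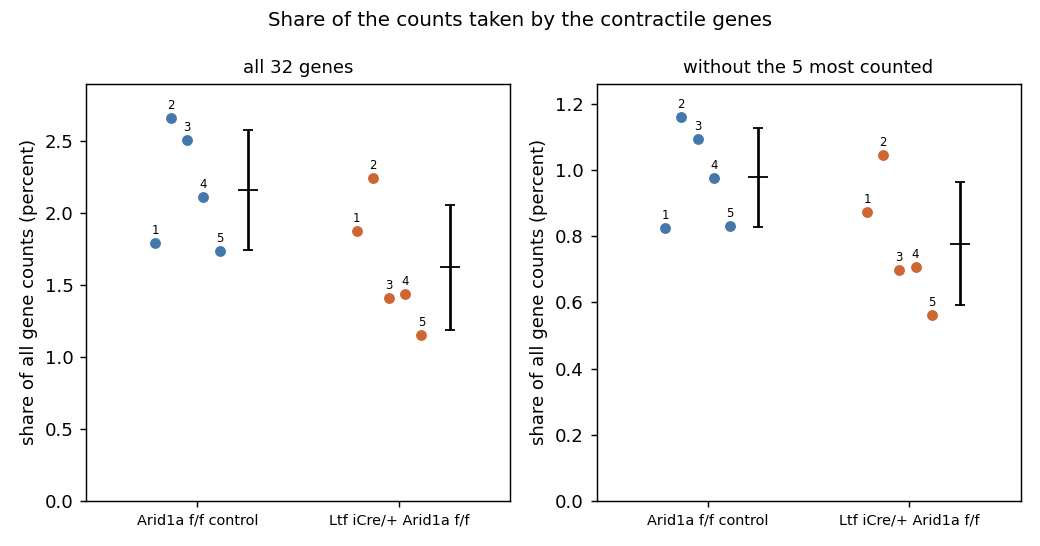
Share of all gene counts (percent, linear axis from 0) taken by the 32 genes (left) and by the 27 that remain without the 5 most counted (right), with 1 numbered point per uterus and the mean and SD of 5 beside each genotype. In both panels Cre-positive replicates 3, 4 and 5 sit below the controls and replicates 1 and 2 among them.

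The mean of the genes differed from uterus to uterus within each genotype. On average over the 32 genes, log2 CPM differed from the control mean by -0.19, 0.26, 0.25, -0.03 and -0.28 in control replicates 1 to 5 and by -0.13, 0.09, -0.58, -0.55 and -0.81 in Cre-positive replicates 1 to 5. The controls themselves thus spread from 1.74% to 2.66% of the counts, with replicates 2 and 3 high and replicate 5 low, and 15 genes had their highest value of the 10 uteri in control replicate 2. Cre-positive replicate 5 held the lowest value for 18 genes, replicate 3 for 6 and replicate 4 for 4. Replicate 2 of the same genotype, in contrast, was below the control mean for only 8 of the 32 genes and held the highest value for 6. The median SD of log2 CPM over the genes was 0.29 in controls and 0.48 in Cre-positive uteri, larger in the latter for 28 of 32. Over all tested genes with a control mean of at least 10 CPM the medians were 0.14 and 0.20, so in both genotypes the typical contractile gene varied more between uteri than the typical gene.

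**Figure D3:**
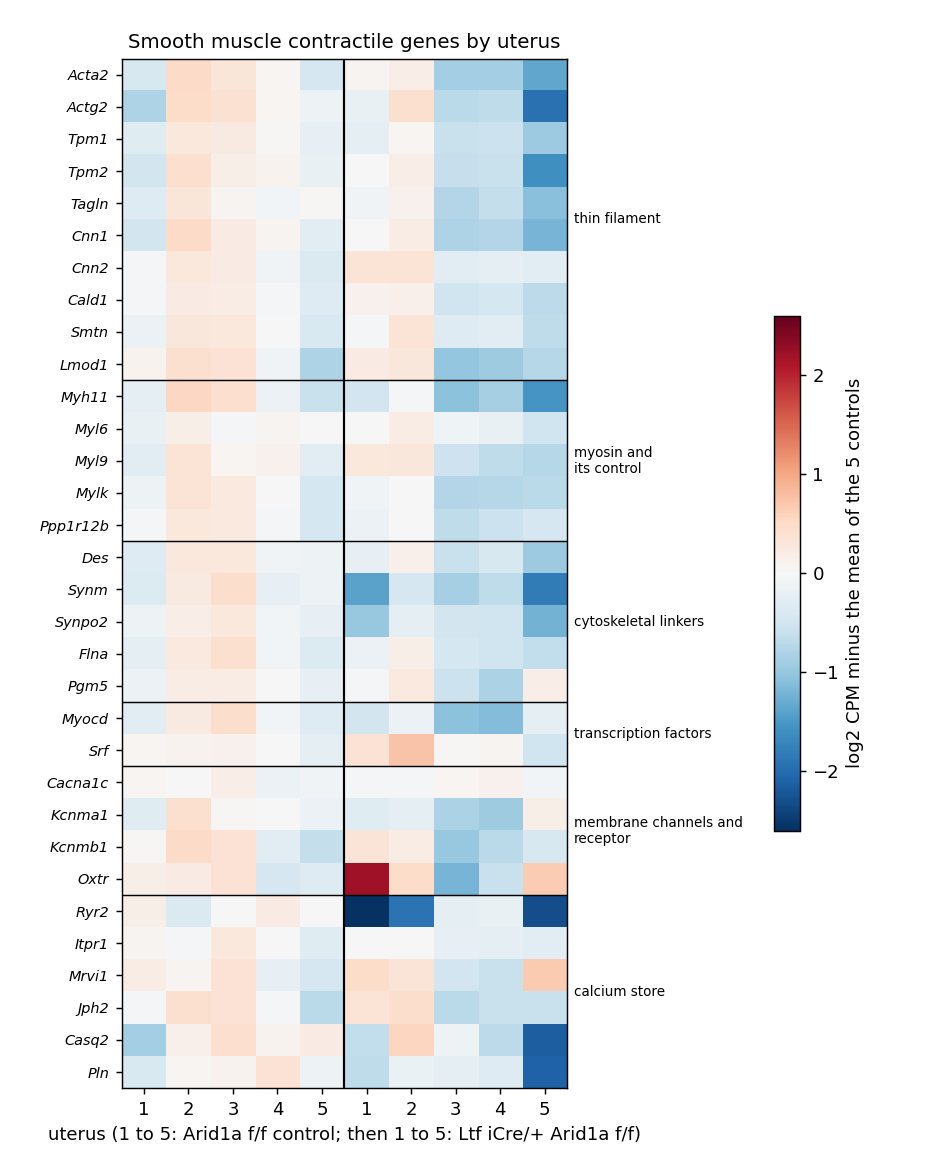
Log2 CPM of the 32 genes (rows, by role) in the 10 uteri (columns) minus the mean of the 5 controls of the same gene, blue below and red above. The dark columns are Cre-positive replicates 3, 4 and 5, whereas Ryr2, Synm and Synpo2 are also low in replicate 1, and Oxtr in replicate 1 is the strongest red.

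Myocd and Srf encode the transcription factors that drive the contractile genes. Myocd (ENSMUSG00000020542, chr11:65176561-65269989, GRCm38), the smooth muscle coactivator, had 28.5, 40.4, 46.9, 32.8 and 27.2 CPM in control replicates 1 to 5 and 24.9, 30.9, 16.5, 15.8 and 29.2 CPM in Cre-positive replicates 1 to 5. Replicates 1, 3 and 4 lay below every control. The log2 fold change was -0.59 (SE 0.22, edgeR adjusted p = 0.116). Srf (ENSMUSG00000015605, chr17:46548329-46556175), the DNA-binding factor, is used by many cell types. It had 114, 118, 119, 110.1 and 94.5 CPM in controls and 143, 186, 113, 117 and 77.7 CPM in Cre-positive uteri, with a log2 fold change of 0.20 (SE 0.19, adjusted p = 0.557). The log2 ratio of Myocd to Srf lay between -2.0 and -1.34 (median -1.7) in controls and -2.52, -2.59, -2.78, -2.88 and -1.41 in Cre-positive uteri. Replicates 1 to 4 lay below every control and replicate 5 above 4 of the 5 controls. The difference of -0.75 had a two-sided exact permutation p of 0.0397, and 0.198 after adjustment over the 10 ratios tested here, so it did not pass.

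Their promoters were read for the element that SRF binds. RefSeq windows (GRCm38.p6) from 250 bases before to 50 bases after a transcription start were at hand for 27 of the 32 genes, in 34 windows, while Myh11, Actg2, Tagln, Itpr1 and Myocd had none in the table. A CArG box was searched as CC, 6 bases that are each A or T, and GG, which reads the same on both strands, and also with at most 1 of those 6 bases being C or G. The exact form stood in 4 of 34 windows (11.8%), against 535 of 32851 windows over all genes (1.63%), and the relaxed form in 10 of 34 (29.4%), against 3280 (9.98%). Windows of a gene can overlap, and those of Jph2 hold the same box, which is counted in both. By gene, the exact form stood in 4 and the relaxed form in 8 of 27, against 488 and 3050 of 27025 over all genes. The exact form was found in Myl9, Cnn2, Myl6 and Srf, and 1 base off in Acta2, Synm, Jph2 and Cacna1c. Shown first are the 2 genes that passed the test, then Srf, the factor's own gene, Acta2, the most abundant of the genes per length, and Myl9, which holds both forms of the box, with boxes in capitals.
Synm (chr7:67759693-67759992, minus strand): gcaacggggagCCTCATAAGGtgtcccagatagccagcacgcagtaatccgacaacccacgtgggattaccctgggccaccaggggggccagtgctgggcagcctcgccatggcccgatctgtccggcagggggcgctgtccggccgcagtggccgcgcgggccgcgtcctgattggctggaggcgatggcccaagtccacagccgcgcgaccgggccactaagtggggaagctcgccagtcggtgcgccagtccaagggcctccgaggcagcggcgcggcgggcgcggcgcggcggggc
Synpo2 (chr3:123236100-123236399, minus strand): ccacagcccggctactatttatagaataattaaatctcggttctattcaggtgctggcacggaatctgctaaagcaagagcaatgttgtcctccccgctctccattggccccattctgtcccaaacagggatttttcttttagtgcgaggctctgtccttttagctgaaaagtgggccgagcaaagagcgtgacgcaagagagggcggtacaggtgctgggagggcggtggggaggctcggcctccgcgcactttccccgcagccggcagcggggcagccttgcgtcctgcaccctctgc
Srf (chr17:46556113-46556412, minus strand): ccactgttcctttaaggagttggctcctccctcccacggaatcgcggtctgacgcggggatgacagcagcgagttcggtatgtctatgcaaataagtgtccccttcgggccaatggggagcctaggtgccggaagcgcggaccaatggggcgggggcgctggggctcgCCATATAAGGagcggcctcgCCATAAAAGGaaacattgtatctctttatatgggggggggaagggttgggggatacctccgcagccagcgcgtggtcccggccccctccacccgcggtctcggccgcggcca
Acta2 (chr19:34255324-34255623, minus strand): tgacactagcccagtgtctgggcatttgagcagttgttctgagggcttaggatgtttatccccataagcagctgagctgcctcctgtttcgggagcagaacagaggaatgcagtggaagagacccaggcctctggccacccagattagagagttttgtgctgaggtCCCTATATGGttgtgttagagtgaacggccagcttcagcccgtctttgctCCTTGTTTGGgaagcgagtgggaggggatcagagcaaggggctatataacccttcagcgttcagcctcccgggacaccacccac
Myl9 (chr2:156775214-156775513, plus strand): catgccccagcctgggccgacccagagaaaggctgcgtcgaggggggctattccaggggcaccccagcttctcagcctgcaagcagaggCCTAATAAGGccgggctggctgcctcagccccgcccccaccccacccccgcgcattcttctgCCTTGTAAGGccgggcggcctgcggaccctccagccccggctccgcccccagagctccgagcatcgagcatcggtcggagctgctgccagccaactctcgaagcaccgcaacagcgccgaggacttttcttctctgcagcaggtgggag
The Synm window held 1 relaxed box, which begins 239 bases before the start, and the Synpo2 window held none. Srf held 2 exact boxes, 82 and 62 bases before its start, Acta2 2 relaxed boxes, 84 and 34 bases before, and Myl9 an exact box 161 bases and a relaxed box 99 bases before. A match describes the letters of a window and was not tested for binding.

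Both genes that passed the test were among the 5 cytoskeletal linkers. The 2 calls were 6.25% of the full set, against 9.7% of all tested genes called in either direction and 4.51% called lower. All 5 linkers had a log2 fold change below 0. Their median of -0.38 was no lower than the -0.43 of the thin filament genes, none of which was called. Whether the linkers differ from the other groups was not tested. Synm (ENSMUSG00000030554, chr7:67730160-67759742, minus strand) encodes synemin, an intermediate filament protein that joins desmin filaments to membrane attachment sites. It had 104, 156, 183, 114 and 120.2 CPM in control replicates 1 to 5 and 50.4, 97.2, 72.3, 83.7 and 37.7 CPM in Cre-positive replicates 1 to 5. The genotypes did not overlap, and replicates 5 and 1 were lowest. The means were 135 ± 33.0 and 68.3 ± 24.2 CPM (SD, n = 5 each), 50.4% of control, with a log2 fold change of -0.99 (SE 0.25, edgeR adjusted p = 0.0299, DESeq2 adjusted p = 0.00218). Synpo2 (ENSMUSG00000050315, chr3:123076519-123236149, minus strand) encodes synaptopodin 2, which bundles actin where filaments are anchored. Controls had 797, 984, 1056, 829.8 and 751 CPM, and Cre-positive uteri had 444, 746, 630.2, 611 and 374 CPM. Here too the genotypes did not overlap, although replicate 2 at 746 CPM came close to control replicate 5 at 751 CPM. The means were 884 ± 130.4 and 561 ± 150.3 CPM (SD, n = 5 each), and the log2 fold change was -0.66 (SE 0.18, edgeR adjusted p = 0.0460, DESeq2 adjusted p = 0.00798). With each uterus left out in turn, Synm kept an adjusted p under 0.05 in 7 of 10 fits (0.0186 to 0.0733) and Synpo2 in 1 of 10 (0.0237 to 0.103), and both kept their direction.

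The other linkers did not pass. Des (chr1:75360329-75368579), the muscle intermediate filament desmin that synemin joins, had means of 672 ± 125 and 517 ± 146 CPM (SD, n = 5 each) and a log2 fold change of -0.38 (SE 0.20, adjusted p = 0.248). Flna, the actin crosslinker filamin A, had 3150.4 ± 714 and 2521 ± 589.8 CPM (SD, n = 5 each; log2 fold change -0.32, adjusted p = 0.333). Pgm5, a component of adherens junctions in muscle, had a log2 fold change of -0.15 (adjusted p = 0.686), with 193, 239, 136, 113 and 227 CPM in Cre-positive replicates 1 to 5. Replicate 5, the lowest uterus for most of the genes, thus held one of the higher Pgm5 values.

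**Figure D4:**
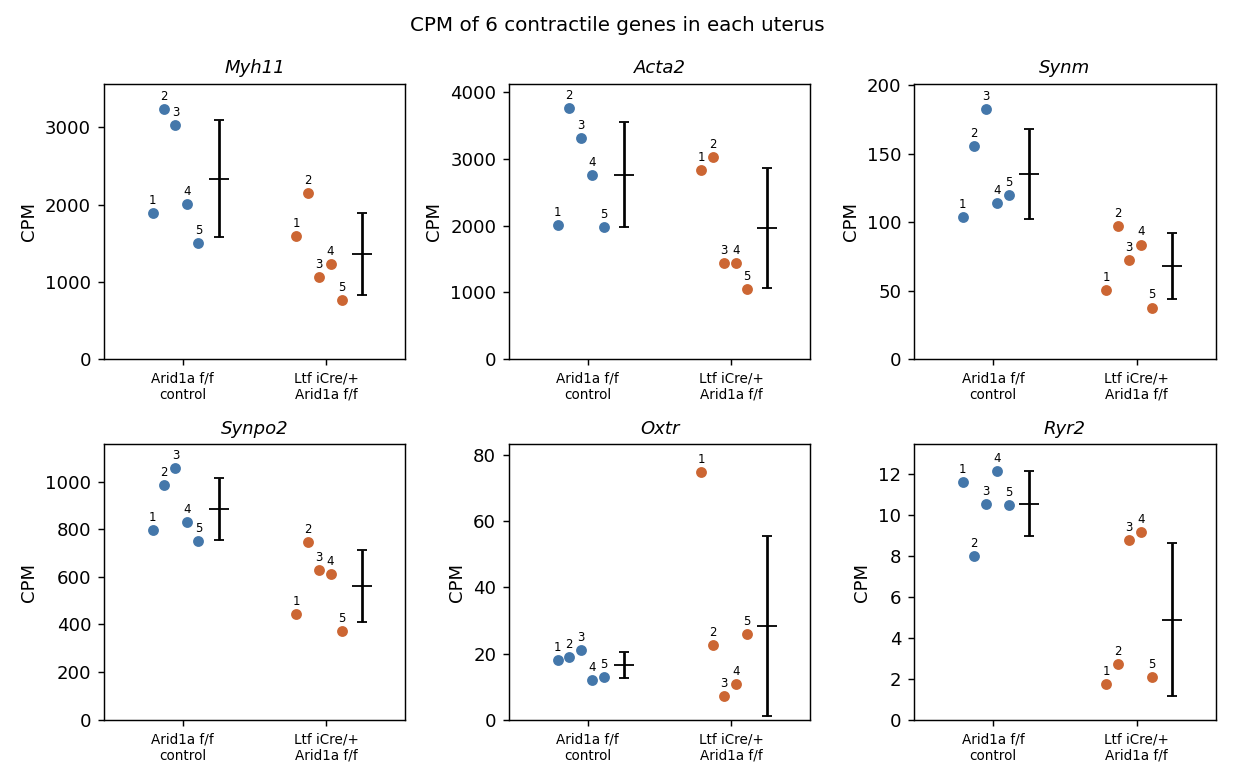
CPM (linear axes from 0) of 6 of the genes in each uterus, with numbered points and the mean and SD of 5 beside each genotype. Synm and Synpo2 separate the genotypes, Myh11 and Acta2 overlap, Oxtr has 1 high uterus (replicate 1, 74.8 CPM), and Ryr2 splits the Cre-positive uteri into 3 low and 2 near the controls.

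None of the 5 genes of myosin and its control passed edgeR's test, and all 5 were below 0 (median -0.36). Myh11 (ENSMUSG00000018830, chr16:14194535-14291372, minus strand), the smooth muscle myosin heavy chain and the most specific marker of the cell type among these genes, had 1891, 3240.1, 3028, 2009 and 1502 CPM in controls. In Cre-positive replicates 1 to 5 it had 1594, 2147, 1061, 1232 and 769 CPM. Replicates 3, 4 and 5 lay below every control and replicate 2 above 3 of them. Its mean was 58.3% of control, with a log2 fold change of -0.78 (SE 0.29, edgeR adjusted p = 0.111), and DESeq2 gave an adjusted p of 0.0466. Mylk, the myosin light chain kinase, had a log2 fold change of -0.45 (SE 0.21, adjusted p = 0.199) and Ppp1r12b, the muscle form of the targeting subunit of myosin phosphatase, -0.36 (SE 0.16, adjusted p = 0.188). The log2 ratio of this kinase to this phosphatase subunit moved by -0.10 (exact permutation p = 0.214). The light chains were closer to 0. Myl9, the regulatory light chain that the kinase phosphorylates, was at -0.22 (SE 0.23, adjusted p = 0.606) and Myl6, the essential light chain found in most cells, at -0.11 (SE 0.13, adjusted p = 0.643).

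None of the 10 thin filament genes passed, and all 10 were below 0, with a median of -0.43 and a range from -0.50 to -0.01. Acta2 (ENSMUSG00000035783, chr19:34241090-34255590, minus strand), smooth muscle alpha-actin, had 2006, 3757, 3314, 2759 and 1978 CPM in controls and 2825, 3029, 1440.3, 1443 and 1054 CPM in Cre-positive uteri. The same 3 uteri, replicates 3, 4 and 5, were below every control, while replicates 1 and 2 were above the control mean. The log2 fold change was -0.50 (SE 0.31, adjusted p = 0.344). Actg2, the gamma-actin of visceral muscle, ran from 327 to 797 CPM (median 594) in controls and from 148 to 761 CPM in the other genotype. Its log2 fold change was -0.50 (SE 0.37, adjusted p = 0.438), and the log2 ratio of the actins moved by -0.05 (exact permutation p = 0.849). Tagln (transgelin), Tpm1 and Tpm2 (tropomyosins) and Cnn1 (calponin 1), all of which lie along the actin filament, were at -0.44, -0.43, -0.43 and -0.45, with adjusted p from 0.176 to 0.390. In each of these 4 genes Cre-positive replicates 3, 4 and 5 lay below every control. Lmod1, which seeds actin filaments, was at -0.38, Cald1 (caldesmon) at -0.26 and Smtn (smoothelin) at -0.18, with adjusted p from 0.413 to 0.608. Cnn2, the calponin that non-muscle cells also make, was level between the genotypes on average. It had 175 ± 30.5 and 174 ± 43.2 CPM (SD, n = 5 each), and the log2 fold change was -0.01 (adjusted p = 0.983). The log2 ratio of Cnn2 to Cnn1 was -0.93, -1.61, -1.39, -1.55 and -1.45 in controls and -1.04, -1.23, -0.88, -0.87 and -0.47 in Cre-positive uteri, 3 of which lay above every control. The difference of 0.49 had an exact permutation p of 0.0238 and 0.198 after adjustment over the 10 ratios.

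None of the 4 membrane channels and receptor passed. Cacna1c (chr6:118587240-119196418), the pore of the L-type calcium channel, had the smallest SE of the 32 genes and ran from 119 to 148 CPM (median 133) in controls and from 124 to 143 CPM (median 128) in Cre-positive uteri. Its log2 fold change was -0.0013 (SE 0.08, adjusted p = 0.994). Kcnma1, the pore of the calcium-activated potassium channel that relaxes muscle, and its smooth muscle subunit Kcnmb1 were at -0.39 (adjusted p = 0.280) and -0.28 (adjusted p = 0.579), and their log2 ratio moved by 0.11 (exact permutation p = 0.683). Oxtr (ENSMUSG00000049112, chr6:112473683-112489943, minus strand), the oxytocin receptor, had 18.2, 19.0, 21.1, 12.1 and 12.9 CPM in controls and 74.8, 22.6, 7.05, 10.9 and 25.8 CPM in Cre-positive uteri. Replicate 1 stood at more than any other uterus, and replicates 3 and 4 lay below every control. The log2 fold change of 0.76 (SE 0.52, adjusted p = 0.394) was -0.01 without replicate 1, so its direction rested on that uterus. The log2 ratio of Oxtr to Myh11 was 1.12 higher in Cre-positive uteri, 3 of them above every control, with an exact permutation p of 0.0714 (0.238 adjusted). Epithelial cells of the uterus can also make Oxtr, and in whole tissue the source of the counts was not tested.

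None of the 6 genes of the calcium store passed. Ryr2 (ENSMUSG00000021313, chr13:11553102-12106945, minus strand), a calcium release channel best known from heart, had 11.6, 8.01, 10.5, 12.1 and 10.5 CPM in controls and 1.74, 2.72, 8.76, 9.15 and 2.10 CPM in Cre-positive uteri. Replicates 1, 2 and 5 were far below every control, and replicates 3 and 4 lay within the control range. In Myh11 and Acta2, by contrast, replicates 3, 4 and 5 were the ones below every control. The log2 fold change of -1.11 was the most negative of the 32 genes and had a wide error (SE 0.45, adjusted p = 0.144). Casq2, the calcium-binding protein of the store that works with ryanodine receptors, had 3.73, 8.58, 5.31, 3.60 and 1.29 CPM in Cre-positive uteri against 3.15 to 7.90 CPM in controls. Its log2 ratio to Ryr2 was 1.10 and 1.66 in replicates 1 and 2 and between -1.88 and -0.34 in all other uteri, and the difference in means of 0.85 did not pass (exact permutation p = 0.262) and was -0.070 between medians. Pln, phospholamban, which holds back the calcium pump of the store, had 16.5, 22.6, 23.1, 28.3 and 19.9 CPM in controls and 13.7, 19.3, 18.4, 17.1 and 5.06 CPM in Cre-positive uteri, with a log2 fold change of -0.59 (SE 0.30, adjusted p = 0.240). The pump itself, Atp2a2, had 436 ± 55.5 and 411 ± 44.9 CPM (SD, n = 5 each; log2 fold change -0.09, adjusted p = 0.687). The log2 ratio of Pln to Atp2a2 was -6.45 in replicate 5 and at -5.08 or above elsewhere (difference -0.62, exact permutation p = 0.159). Itpr1, the inositol trisphosphate receptor that releases calcium after hormone signals, was at -0.16 (SE 0.11, adjusted p = 0.412), and Jph2, which holds the store near the membrane, at -0.18 (adjusted p = 0.742). Mrvi1, the receptor-associated substrate of cGMP kinase, was at 0.15 (adjusted p = 0.766), with its highest value, 360.3 CPM, in the uterus where most of the genes were lowest, replicate 5.

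Subtracting from each uterus its mean over the 32 genes leaves what was not shared. On this log2 scale Synm was lowest in Cre-positive replicates 1 (-1.27) and 5 and between -0.18 and 0.21 in controls, and Synpo2 was at -0.86 and -0.41 in the same uteri and between -0.09 and 0.06 in controls. Replicate 2 was also below every control, at -0.53 for Synm and -0.32 for Synpo2. In replicates 3 and 4 both were nearer the mean of the set, at -0.29 and -0.11 for Synm and 0.11 and 0.03 for Synpo2. In replicate 3 Synm was still below every control, whereas Synpo2 was above every control. Srf was above the mean of the set in all 5 Cre-positive uteri (0.31 to 0.66) and above every control (-0.17 to 0.24). The same held for Cnn2 (0.27 to 0.51 against -0.09 to 0.17) and Smtn (0.07 to 0.27 against -0.11 to 0.03). Each of these is a description without a test.

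Per kilobase of annotated exon, the control mean was highest for Acta2 at 1258 CPM per kb, followed by Tagln at 699.6, Myl9 at 630.0, Actg2 at 385, Flna at 335, Tpm2 at 329.7 and Myh11 at 307. It was lowest for Ryr2 at 0.367, Kcnma1 at 0.760, Casq2 at 2.21 and Oxtr at 3.47 CPM per kb. The levels of Actg2, Flna, Tpm2 and Myh11 lay closer together than the spread of each between control uteri. The exon lengths count every annotated isoform, which lowers the value of genes with many.

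Of 48 further genes of smooth muscle contraction (calcium entry, nitric oxide signaling, receptors, adhesion and others), all were tested, 10 were called lower and 0 higher (20.8%, against 9.7% of all tested genes called and 4.51% called lower). In 41 of the 48 the log2 fold change was below 0, with a median of -0.31. The 6 largest among the called were Ptger3 (a prostaglandin E2 receptor), Adra1a (the alpha-1A adrenergic receptor), Hspb6 (a small heat shock protein of relaxing muscle), Gucy1a1 (a subunit of the nitric oxide receptor guanylate cyclase), Pde5a (the phosphodiesterase that degrades its product, cGMP) and Chrm3 (a muscarinic receptor). Ptger3 had 87.9, 138, 123, 108 and 103 CPM in controls and 35.4, 70.4, 67.1, 57.5 and 35.4 CPM in Cre-positive uteri (log2 fold change -1.08, SE 0.21, adjusted p = 0.0107). Adra1a had 9.44, 15.7, 14.2, 11.7 and 11.5 CPM against 4.28, 6.20, 7.54, 6.16 and 6.19 CPM (log2 fold change -1.04, SE 0.18, adjusted p = 0.00652). In both, every Cre-positive uterus lay below every control. Hspb6 fell by 0.88, Gucy1a1 by 0.76, Pde5a by 0.73 and Chrm3 by 0.70 on the log2 scale, with adjusted p of 0.0369, 0.00512, 0.00951 and 0.0397. With each uterus left out in turn, Gucy1a1 and Pde5a kept an adjusted p under 0.05 in 10 of 10 fits, Hspb6 in 3 and Chrm3 in 2. Gucy1a1 had 44.8, 57.9, 65.9, 63.4 and 57.5 CPM in controls and 29.4, 33.7, 36.3, 30.3 and 41.7 CPM in the other genotype, a spread between uteri of 1 genotype (SD of log2 CPM 0.22 and 0.20) well under that of Myh11 (0.47 and 0.56). The other 4 called genes were Gucy1b1, Stim1, Ppp1r12a and Mrtfb. Mrtfb (a myocardin-related transcription factor) had 98.4 to 119.8 CPM in controls and 62.0 to 70.1 CPM in Cre-positive uteri. Its log2 fold change was -0.70 (SE 0.07, edgeR adjusted p = 0.000681). The related Mrtfa, in contrast, was level at 0.02 (edgeR adjusted p = 0.959). Several of these, the guanylate cyclase subunits and Pde5a among them, are also used by vessel walls and other cells.

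Other cell types moved with the genotype in the same libraries, and their part in the values above was not tested. Of 8 pericyte and vascular smooth muscle markers 3 were called lower and 0 higher. Their summed level was 667 to 856 CPM in Cre-positive uteri and 1269 to 1643 CPM in controls, 52.9% of control without overlap. Rgs5, the most abundant, had 847 ± 108 and 345 ± 79.8 CPM (SD, n = 5 each; log2 fold change -1.30, adjusted p = 0.00162). It made up most of the control sum, whose mean was 1459 CPM. In 3 of the 8 markers the genotypes did not overlap, against 5.16% of all tested genes lower without overlap. Of 8 endothelial markers 7 were called lower, with sums of 381 to 566 CPM against 810.0 to 1113 CPM (Cdh5, log2 fold change -1.26, adjusted p = 0.00421). The vascular sums were low in all 5 Cre-positive uteri, at 45.7% to 58.6% of the control mean for pericytes and 39.2% to 58.2% for endothelium. Rgs5 weighs heavily in the pericyte sum. The contractile genes were at 91.0%, 106.4%, 62.9%, 64.0% and 52.3% in replicates 1 to 5. Epithelial markers ran the other way, with 7 of 8 called higher and sums of 1035 to 2535 CPM against 703 to 914 CPM (Cdh1, log2 fold change 0.82, adjusted p = 0.0106). Of 8 leukocyte markers 2 were called higher, with sums of 424 to 1429 CPM against 289.8 to 553 CPM (Lyz2, log2 fold change 1.19, adjusted p = 0.0738). The leukocyte sum was highest, at 360.4% of the control mean, in replicate 5, where the contractile genes were lowest. Of 8 stromal markers 2 were called lower, and the sums of 10111 to 15477 CPM overlapped the controls at 11989 to 17289 CPM (Col3a1, log2 fold change -0.26, adjusted p = 0.420). Most of that sum was Col3a1 and Col1a1, with control means of 6197 and 3629 CPM, and Col1a1 stood at 125.6% of control. In 3 of the 8, Vim, Pdgfra and Dcn, the genotypes did not overlap, at 52.0%, 61.5% and 63.9% of control. Over all tested genes 5.16% were lower without overlap. Mesothelial markers, of the outer surface of the uterus, had sums of 356 to 497 CPM against 321 to 338 CPM and 3 of 6 called higher, 1 of them (Krt19) shared with the epithelial list (Wt1, log2 fold change -0.18, adjusted p = 0.455). The mean of this sum was 328 CPM in controls and 414 CPM in Cre-positive uteri. Krt19 alone had means of 118 and 202 CPM, so most of the difference in the sum lay in this shared gene.

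**Figure D5:**
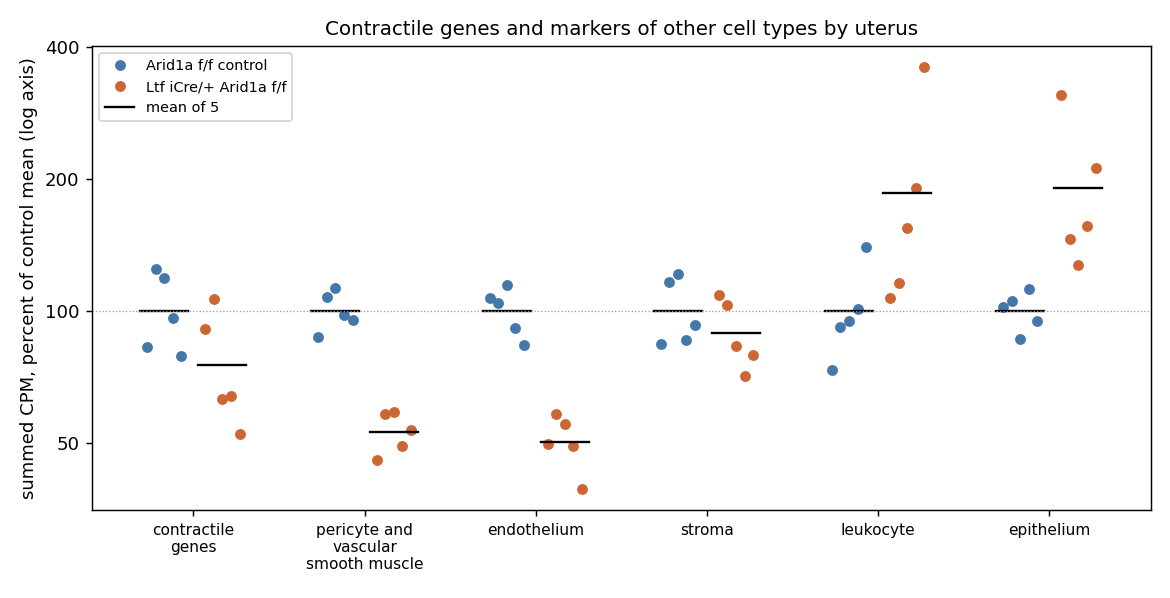
Summed CPM of the 32 contractile genes and of 5 marker lists in each uterus, as percent of the control mean (log axis), with 1 point per uterus in the order of the replicate numbers and the mean as a bar. The contractile genes overlap between genotypes (52.3% to 106.4% in Cre-positive uteri), whereas the pericyte and endothelial sums do not. In controls the pericyte sum is mostly Rgs5, and 3 of the 8 pericyte markers separate the genotypes.

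Muscle of another kind or fat in the dissection would also carry contractile or wall genes. Of 8 skeletal and cardiac muscle markers 6 passed the filter (Myh2 and Myh4 did not), 1, Ckm, was called lower, and the sums were 72.6 to 119 CPM against 80.7 to 232 CPM. Most of that was Acta1, which smooth muscle also makes at a low level, at 83.2 ± 19.2 against 153 ± 60.2 CPM in controls (SD, n = 5 each; log2 fold change -0.88, adjusted p = 0.0679). Adipocyte markers summed to 1.57 to 5.79 CPM against 1.82 to 2.82 CPM, with none of 7 tested called by edgeR, 1 called higher by DESeq2 and 4 higher at an unadjusted p under 0.05. Of these 7 genes 6 had a log2 fold change above 0, with a median of 2.89, and the exception was the most abundant (Pparg, log2 fold change -0.11, adjusted p = 0.837). Their part in the results was not tested either. Whether the counting used strand is not given in the sources used here. Genes on the opposite strand overlap 62.4% of the annotated exon bases of Tagln (Gm48529) and 59.6% of those of Pln (Gm47644). With strand unknown, the reads of these pairs could not be told apart. Neither Gm48529 nor Gm47644 was itself among the genes counted. A single overlapping gene took at most 16.3% (Smtn) of the exon bases of any other of the 32 genes, and at most 5.37% for Synm.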

How the data were processed

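The authors extracted total RNA from uteri, made mRNA libraries, sequenced them as 50 bp, paired end reads, trimmed these with cutadapt 1.18 and Trim Galore 0.6.4, aligned them to GRCm38 with STAR 2.7.3a and deposited whole-number counts per gene, without normalization or filter. The annotation release and strand setting are not given in the sources used here. Columns were matched to samples by name.

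Symbols and coordinates came from GENCODE M21, which held 45143 of 45706 identifiers. Genes averaging 1 count per sample or more entered the test in edgeR 4.0.16 (R 4.3.3; TMM, quasi-likelihood test on genotype alone, adjusted over 25146 genes by Benjamini-Hochberg, threshold 0.05), with DESeq2 1.42.0 as the alternative. edgeR's test returns no standard error, so each SE was derived from it, as the absolute log2 fold change divided by the square root of its F statistic. CPM values use TMM library sizes, and log2 CPM a prior count of 2. The 10 ratios between genes, each the log2 ratio of counts in a uterus, were compared by exact permutation, two-sided, over 252 arrangements of the uteri (smallest p 0.00794). The procedures were tested on simulated counts. No 2 libraries of a genotype agreed within sampling noise (lowest chi-square per gene 36.1). With 59296537 counts or more per library, counting error was small beside the spread between uteri. Alternatives covered normalization, test, filter, replicate number as a block, and leaving out each uterus.

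The 32 genes and all other lists were chosen with earlier results of these data known, so no list was tested as a whole. All 32 are named, with Arid1a, Ltf, the 6 called contraction genes of largest fold change, Atp2a2, the most abundant gene of each marker list and genes that overlap the 32. The other 4 called contraction genes, Mrtfa, Vim, Pdgfra, Dcn, Col1a1 and Krt19, and Ckm, Myh2 and Myh4 within counts, were named after their values were seen.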

Additional observations from a re-analysis of the deposited data

Results flagged for a closer look

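Among 86 groups of 5 uteri examined for a single value far from the other 4, 2 were found, where about 1 in 20 (4.3) are so by chance. Oxtr stood at 74.8 CPM in Cre-positive replicate 1, and the other 4 uteri of the genotype lay between 7.05 and 25.8 CPM. The log2 ratio of Myocd to Srf was -1.41 in Cre-positive replicate 5, and the other 4 lay between -2.88 and -2.52.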

How the results depend on the processing

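The number of the 32 genes called was 2 under DESeq2 size factors, total counts, upper quartile factors, no filter and edgeR's own filter, and 3 with DESeq2. It lay between 0 and 3 with each uterus left out: 0 without control replicate 2, control replicate 3 or Cre-positive replicate 1, 1 (Synm) without 6 others, and 3 without Cre-positive replicate 2. The count over all genes also fell, to as few as 1204. The median log2 fold change stayed between -0.50 and -0.25 and the difference in the share of counts between -0.69 and -0.41 percentage points. The 10 further contraction genes called became 7 to 13.

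Uteri with the same replicate number showed little shared deviation (correlations of -0.05 to 0.13, own number best for 2 of 5). The study used littermates for comparisons when possible, and the labels do not say whether equal numbers mark littermates. So few correlations cannot exclude a pairing. With the replicate number as a block 3 of the 32 genes were called, Myh11 being added, and 10 contraction genes, against 1704 genes in all.

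Directions turned for genes near 0 and for genes whose direction rested on 1 uterus. Cacna1c was at 0.0051 with total counts and 0.0011 with the replicate block, and lay between -0.037 and 0.037 with a uterus left out, and Cnn2 between -0.12 and 0.060. Mrvi1 was -0.014 without Cre-positive replicate 5 (to 0.29) and Oxtr -0.011 without replicate 1 (to 1.01). Of the ratios, Actg2 to Acta2 was 0.18 by medians and -0.14 to 0.093 with a uterus left out, Casq2 to Ryr2 -0.070 by medians, Kcnmb1 to Kcnma1 -0.020 to 0.28 and Tpm2 to Tpm1 -0.14 to 0.079 with a uterus left out. No ratio passed after adjustment in any alternative. Among single genes outside the 32, Hspb6 kept an adjusted p under 0.05 in 3 and Chrm3 in 2 of the 10 fits without a uterus. The cause was not tested. The spread between uteri, not depth, set the precision, since the lowest count of any of the 32 genes in a library was 89.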
